A study of Homo sapiens with 6 samples.

Results

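Many proteins of the cation-chloride cotransporter family move chloride with sodium or potassium across membranes, and certain kinases switch this transport on and off. The 8 genes described here are SLC12A2, SLC12A4, SLC12A7, SLC12A8 and SLC12A9 of the cation-chloride cotransporter family, and the kinases WNK1, STK39 and OXSR1. They were taken by symbol from a count table of 48162 gene identifiers, and all 8 were among the 15860 genes with enough counts to be tested. The set was chosen by the counts themselves, because the level of SLC12A7 was 3.03-fold higher with the CNN3 siRNA than with the control in these same samples, so the differences of the 8 genes between the groups are given as a description, without p-values. RNA of SiHa cells, an established human cervical cancer line, was sequenced 48 h after transfection with an siRNA against CNN3 (si-CNN3#1, 3 samples, here si-CNN3) or with a control siRNA (si-NC, 3 samples). Both groups had received an siRNA and a change of medium, and no untransfected sample and no further siRNA against CNN3 was analysed here. The study's methods describe the 3 samples of a group as independent assays; how far they were separated was not given, and p-values measure only the spread between them. Since these are bulk samples, fewer cells of one kind and less RNA per cell cannot be told apart.

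SLC12A2 (NKCC1) takes up sodium, potassium and chloride together, whereas SLC12A4 (KCC1) and SLC12A7 (KCC4) let potassium and chloride out of the cell. Cells use the first kind of transporter to gain salt and water after shrinkage and the second kind to lose them after swelling. WNK kinases, which sense chloride and osmotic stress, phosphorylate and activate the kinases SPAK (the product of STK39) and OSR1 (the product of OXSR1), which in turn phosphorylate the cotransporters: this activates SLC12A2 and inhibits the potassium-chloride cotransporters. SLC12A8 and SLC12A9 are more distant relatives in the same family, and are not counted here among the transporters of chloride with sodium or potassium.

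The siRNAs are shown because each can also pair through its seed, bases 2 to 8 of the guide strand, with other transcripts. The guide strands, written 5′ to 3′ with the seed in capitals, were derived from the sense strands named in the labels.
si-CNN3#1 guide: uUUGUUGGuucccaucugc
si-NC guide: aCGUGACAcguucggagaa
The matches to these seeds in the longest coding transcript of each gene (GENCODE 29, GRCh38) are shown as windows of 19 bases lined up with the siRNA, with the 7 bases that pair with the seed in capitals. In CNN3 the first window equalled the si-CNN3#1 sense strand at 19 of 19 bases. It crosses from exon 5 to exon 6 of 7, in the coding part, between chr1:94899503-94901672 on the minus strand. A second window in exon 7, also coding, equalled it at 17 bases.
CNN3, first window: gcagatgggaaCCAACAAa
CNN3, second window: acagatgggtaCCAACAAa
Among the 8 genes, the si-CNN3#1 seed had a match in the 3′ UTR of WNK1 (chr12:910922-910940, plus strand) and in the coding part of OXSR1 (exons 12 and 13, chr3:38242774-38246088, plus strand). The si-NC seed had a match in the coding parts of SLC12A4 (exon 23, chr16:67945159-67945177, minus strand) and SLC12A7 (exon 8, chr5:1083923-1083941, minus strand).
WNK1, si-CNN3#1: taaggatagaaCCAACAAg
OXSR1, si-CNN3#1: ctgagctctttCCAACAAc
SLC12A4, si-NC: aatgaagtcatTGTCACGc
SLC12A7, si-NC: gaaccgcacgcTGTCACGg
Outside CNN3, these windows equalled the sense strand of the siRNA at 7 to 12 of 19 bases. SLC12A7 held no match to the si-CNN3#1 seed. Of the 12646 tested genes with an annotated 3′ UTR, 10.4% held a match to the si-CNN3#1 seed there and 3.48% a match to the si-NC seed. These shares cover 3′ UTRs only, and no such share is given for coding parts, where the matches in OXSR1, SLC12A4 and SLC12A7 lie. A match is a run of letters, and whether any of these was bound was not tested.

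Libraries held 18147028 to 19026341 counts with si-CNN3 and 20287139 to 24976517 with si-NC, so that every si-NC library was deeper than every si-CNN3 library. CNN3, the targeted actin-binding protein calponin 3, had 490, 514 and 574 counts with si-CNN3 against 1134, 1288 and 1234 with si-NC. Its level was 28.1 ± 2.95 against 55.2 ± 2.97 normalized CPM (counts scaled to the size of the library, mean ± SD, n = 3), which is 50.9% of the control (log2 fold change −0.97, SE 0.06, edgeR adjusted p = 2.04e-20). An exact two-sided permutation test gave p = 0.1, the smallest value that 3 samples against 3 allow. Of the 8 genes listed for epithelial SiHa cells, KRT7, KRT8, KRT18 and CDKN2A, which SiHa cells are known to express, stood at 130 to 608 CPM. The others were lower. With si-CNN3 against si-NC, CDH1 was at 37.9 against 36.6 CPM, EPCAM at 6.65 against 6.25 and KRT19 at 4.88 against 5.04. The squamous keratin KRT5 had at most 11 counts in any sample. KRT8 (533 against 608 CPM, edgeR adjusted p = 4.87e-07) and KRT18 (130 against 147 CPM, edgeR adjusted p = 5.31e-05) were lower with si-CNN3 and KRT7, KRT19, CDH1, EPCAM and CDKN2A did not pass. The summed level of these 8 listed genes was 1790 to 1830 FPKM with si-CNN3 and 1810 to 1840 with si-NC. The leukocyte markers PTPRC and CD3E were at 1.60 CPM or below, whereas CD14 was at 121 CPM with si-CNN3 and 149 with si-NC (edgeR adjusted p = 7.88e-10), which made up nearly all of the leukocyte sum of 111 to 116 against 131 to 141 FPKM. VWF and CDH5 were below 0.4 CPM, and the 4 fibroblast markers summed to 7.98 to 8.43 against 7.55 to 8.38 FPKM. Any part of other cells in the results was not tested.

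SLC12A7 stood apart from the other 7 genes. It had 431, 429 and 398 counts with si-CNN3 against 146, 180 and 164 with si-NC, although the si-NC libraries were the deeper ones. Normalized to library size, this was 22.9, 22.3 and 21.8 CPM against 7.28, 7.23 and 7.60 CPM. The samples within each group lay close together, with an SD of 2.37% of the mean for si-CNN3 and 2.75% for si-NC. Both lie below the 4.88% and 7.82% that counting error alone gives. The groups were far from overlapping. The means were 22.3 ± 0.53 and 7.37 ± 0.202 CPM (SD, n = 3), a 3.03-fold higher level with si-CNN3 (95% interval 2.72 to 3.38; log2 fold change 1.60, SE 0.08). By this fold change SLC12A7 ranked 16 among the 15860 tested genes, of which 47 had a log2 fold change of 1 or more. The gene lies on chromosome 5 (chr5:1050376-1112035, minus strand, GRCh38) and overlaps no other gene with counts in the table.

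**Figure D1:**
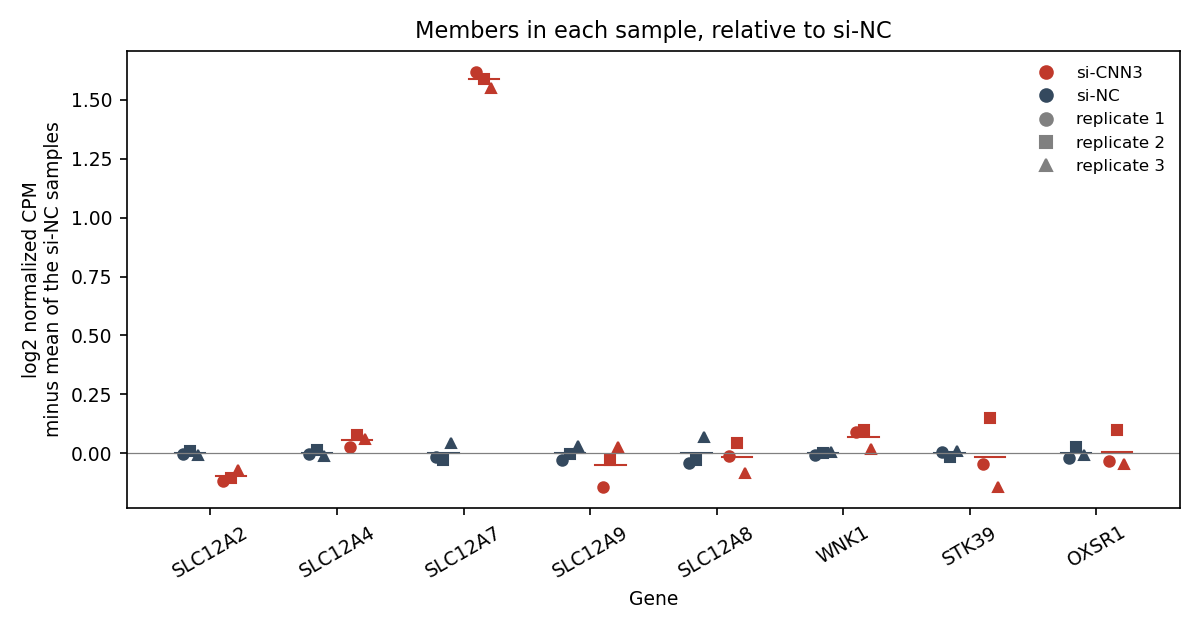
Normalized level of the 8 genes in each of the 6 samples, as log2 CPM minus the mean of the 3 si-NC samples, with a line at each group mean and a marker shape for the replicate number. SLC12A7 with si-CNN3 sits at 1.55 to 1.62, while the mean differences of the other 7 genes lie between −0.10 and 0.07.

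SLC12A4, the potassium-chloride cotransporter found in most tissues, was by far the more abundant of the 2 cotransporters of this kind among the members. Its level was 235, 243 and 241 CPM with si-CNN3 and 230, 233 and 229 CPM with si-NC. The groups did not overlap, but they lay only 1.04-fold apart (240 ± 4.04 against 231 ± 1.87 CPM; log2 fold change 0.05, SE 0.03, 95% interval −0.00 to 0.11). SLC12A4 (chr16:67943474-67969601, minus strand) overlaps LCAT on the same strand, which had 806 to 1124 counts and a log2 fold change of 0.03, and how reads of the shared part were counted was not given in the sources used here. The neuronal potassium-chloride cotransporter SLC12A5 (KCC2), which is not a member, was at 0.574 ± 0.424 against 0.660 ± 0.121 CPM.

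SLC12A2 carries ions the other way and was slightly lower with si-CNN3. It was at 58.3, 58.7 and 60.1 CPM with si-CNN3 and at 63.0, 63.7 and 62.8 CPM with si-NC. All 3 si-CNN3 samples were thus below all 3 si-NC samples, with means of 59.1 ± 0.966 and 63.2 ± 0.446 CPM and a log2 fold change of −0.10 (SE 0.04, 95% interval −0.18 to −0.02). The gene lies at chr5:128083766-128189688 on the plus strand, on the same chromosome as SLC12A7 but far from it.

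SLC12A9 and SLC12A8, the distant relatives, overlapped between the groups. SLC12A9 was at 43.4, 47.1 and 48.9 CPM with si-CNN3 and at 47.1, 47.9 and 49.0 CPM with si-NC (log2 fold change −0.05, SE 0.05, 95% interval −0.14 to 0.05). Its first si-CNN3 sample was the lowest of the 6 and the other two fell within or next to the si-NC range. SLC12A9 (chr7:100826820-100867009, plus strand) overlaps EPHB4 and the antisense gene SLC12A9-AS1 on the other strand. Those had 1655 to 2382 and 6 to 20 counts, and without strand information their reads cannot be told apart in the shared parts. SLC12A8 (chr3:125082636-125212864, minus strand) was at 14.3, 14.8 and 13.6 CPM with si-CNN3 and at 14.0, 14.1 and 15.1 CPM with si-NC. Its log2 fold change of −0.01 (SE 0.08) had a 95% interval of −0.17 to 0.14. SLC12A8 was counted about as deeply as SLC12A7 (248 to 351 counts against 146 to 431).

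The kinases differed little between the groups. WNK1, at the top of the cascade, was at 447, 449 and 425 CPM with si-CNN3 and at 418, 419 and 422 CPM with si-NC. Its groups did not overlap and its means were 440 ± 13.5 and 420 ± 1.79 CPM (log2 fold change 0.07, SE 0.03, 95% interval 0.02 to 0.12). It did not pass the threshold here but did so in 4 of 16 alternatives, and it was the only member whose call changed over these settings. WNK1 (chr12:752593-911452, plus strand) was also the member with the match to the si-CNN3#1 seed in its 3′ UTR. Whether that match bore on its level was not tested.

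STK39, the gene of SPAK, was at 32.6, 37.3 and 30.4 CPM with si-CNN3 and at 33.8, 33.2 and 33.9 CPM with si-NC. The means were nearly the same (33.4 ± 3.52 against 33.6 ± 0.358 CPM; log2 fold change −0.01, SE 0.06, 95% interval −0.12 to 0.11), but the si-CNN3 samples were spread on both sides of the si-NC samples. The coefficient of variation was 10.5% with si-CNN3, where counting error alone gives 3.99%. With si-NC it was 1.06%, below the 3.66% that counting error alone gives. OXSR1, which codes for the closest relative of SPAK, was at 112, 122 and 111 CPM with si-CNN3 and at 113, 116 and 113 CPM with si-NC (log2 fold change 0.01, SE 0.03, 95% interval −0.06 to 0.08). Its highest si-CNN3 sample was replicate 2, as for STK39, SLC12A8, SLC12A4 and WNK1. STK39 lies at chr2:167954020-168248141 on the minus strand and OXSR1 at chr3:38165089-38255488 on the plus strand.

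Of the 8 members, 1, SLC12A7, passed an adjusted p of 0.05 in edgeR, and 1 did so in DESeq2. Among all tested genes 2111 passed it, a background of 13.3%, that is 6.17% higher and 7.14% lower with si-CNN3. The choice of the members rested on this contrast, and nothing is read from that count. The groups did not overlap in 4 of the 8 genes (SLC12A2, SLC12A4, SLC12A7 and WNK1), beside 28.2% of all tested genes. The median log2 fold change of the 8 was 0.000413 and that of all tested genes 0.00226. Without SLC12A7, the 7 others ranged from −0.10 to 0.07.

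**Figure D2:**
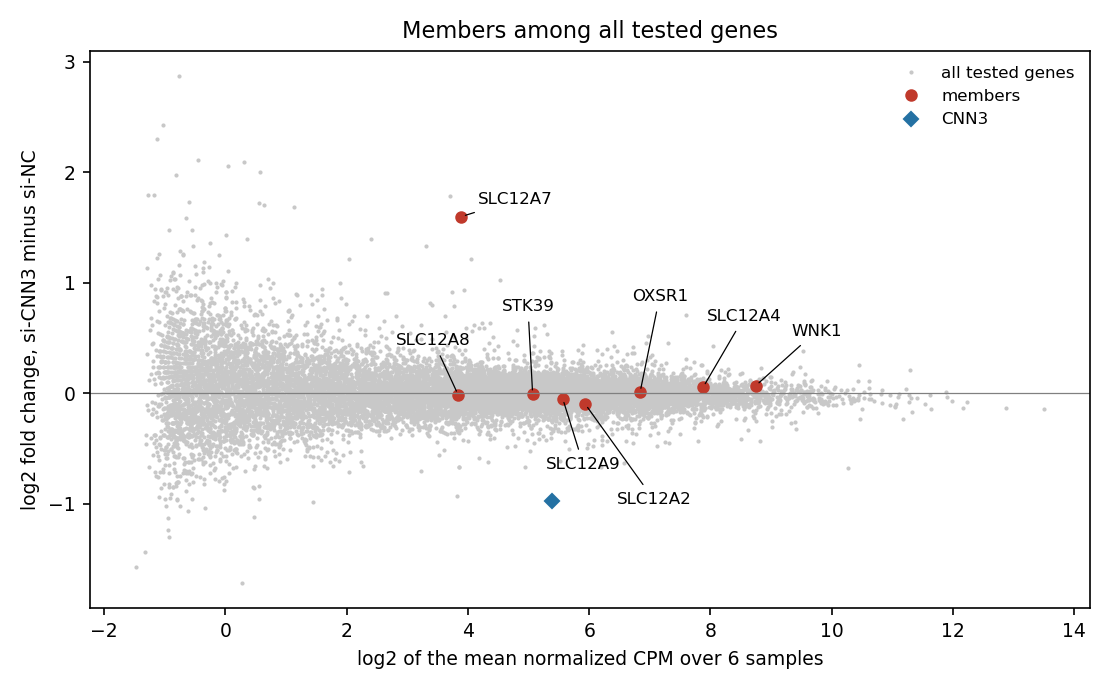
Log2 fold change between si-CNN3 and si-NC against the log2 of the mean CPM over the 6 samples, for the 15860 tested genes (grey), the 8 members (red) and CNN3 (blue). SLC12A7 lies at 1.60, at the upper edge of the genes of its abundance, and the other 7 members lie within the central band.

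Levels of different genes were compared per length, with the deposited FPKM values. With si-NC the order was WNK1 (145 FPKM), SLC12A4 (110), OXSR1 (68.7), SLC12A9 (26.7), SLC12A2 (20.0), STK39 (15.7), SLC12A8 (9.21) and SLC12A7 (4.58), and no neighbours in this order overlapped in their ranges over the samples. SLC12A7 was thus the least abundant of the members in control cells. With si-CNN3 it stood at 14.1 FPKM (13.7 to 14.3), above SLC12A8 at 9.22 (8.81 to 9.66) and just below STK39 at 15.8 (14.4 to 17.7), while the other 6 genes kept their order.

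The length behind these FPKM values matters for the order between genes. The deposited values equalled counts divided by a whole-number length and the library total. That length lay nearer the mean of all annotated transcripts of a gene (median ratio 1.0) than the longest. It was within 5% of that mean in 60.2% of 15718 genes with 3 or more transcripts, and what it stands for was not settled. For WNK1 it was 2880 bases beside 11804 for the longest coding transcript, for SLC12A4 2080 beside 4765, and for SLC12A7 1596 beside 5280. The mean transcript lengths of these genes were 3154.8, 2042.5 and 1862.5 bases. With the longest coding transcript as the length, SLC12A4 (48.1 with si-NC) came above WNK1 (35.3), and SLC12A7 remained last (1.39). On that scale SLC12A7 with si-CNN3, at 4.25, overlapped SLC12A8 at 4.15, and STK39 overlapped SLC12A2 (8.79 and 8.62). Differences of one gene between the groups do not depend on the length.

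**Figure D3:**
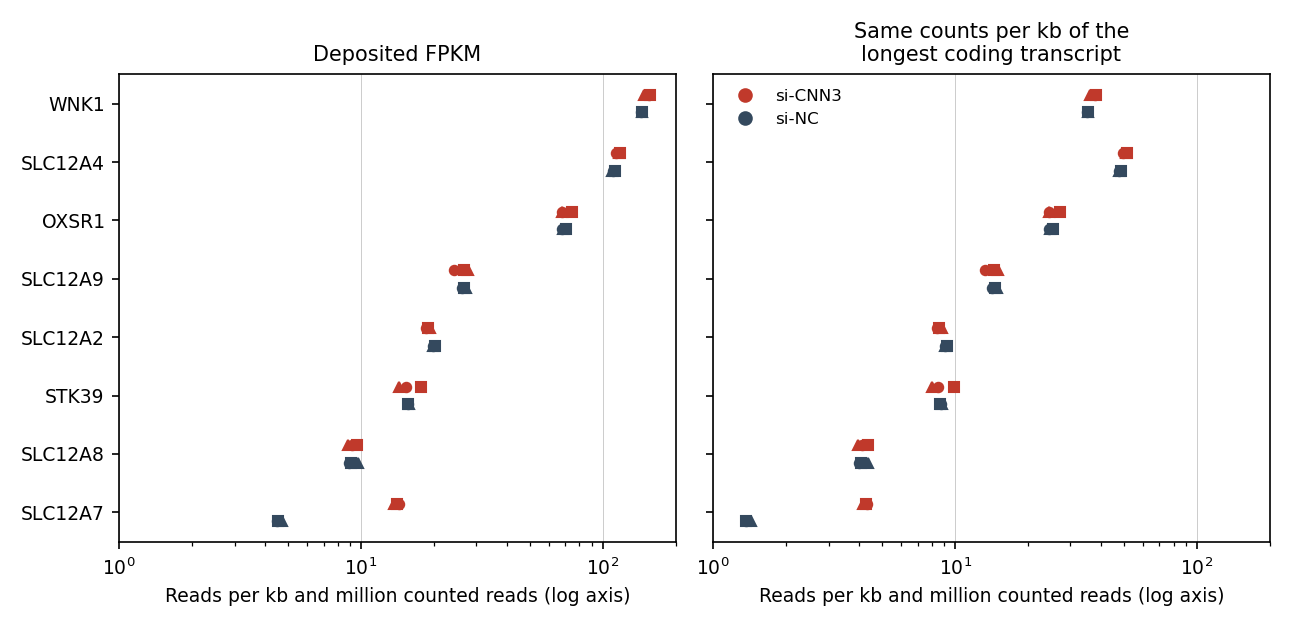
Level of each gene in each sample (counts per kb and library size, log axis), with the deposited FPKM on the left and with the length of the longest coding transcript on the right. SLC12A7 is last in the si-NC samples in both panels, and WNK1 and SLC12A4 change places between the panels.

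The potassium-chloride cotransporters SLC12A4 and SLC12A7 were then set side by side. SLC12A7 made up 11.2%, 10.7% and 10.6% of their summed FPKM with si-CNN3 and 3.95%, 3.89% and 4.14% with si-NC. With the longest coding transcript as the length, these shares were 7.76% and 2.80% on average. SLC12A4 remained the main one of the pair on either scale, with a ratio of SLC12A4 to SLC12A7 in FPKM of 8.24 ± 0.3 with si-CNN3 and 24.1 ± 0.811 with si-NC. The ratio of their sum to the FPKM of SLC12A2 was 6.85, 6.99 and 6.74 with si-CNN3 and 5.73, 5.73 and 5.74 with si-NC, so that the groups did not overlap. The ratio of OXSR1 to STK39 was 4.44 ± 0.238 and 4.37 ± 0.122. These ratios compare RNA, and those with SLC12A7 hold the difference that chose the set.

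The rest of the family and the genes around it were followed in lists that hold no member. None of the 6 tested genes among the other SLC12 and WNK genes passed the threshold in edgeR; 1, WNK2, had an unadjusted p under 0.05, and DESeq2 and limma called 0. Besides SLC12A5, these included the thiazide-sensitive SLC12A3 (17 to 27 counts), WNK2 (7.68 ± 0.929 against 8.90 ± 0.472 CPM), WNK3 (24.8 ± 0.747 against 23.7 ± 0.587 CPM) and WNK4 (13 to 22 counts). The kidney cotransporter SLC12A1 had at most 3 counts in any sample and was not tested. Over all 6 lists, 21 of 72 tested genes passed, 8 higher and 13 lower, which is 29.2% beside the 13.3% of all tested genes. Of these 21 calls, 5 held in all 16 alternative settings, among them those of KLHL2, CLNS1A, FXYD5 and KCNK2, and 10 were lost when at least 1 of the samples was left out. The listed genes were also the more abundant ones, with a median of 29.9 CPM against 20.9 CPM over all tested genes, and the part of abundance in that share was not tested. The lists were moreover drawn up with earlier results of these data known, so nothing is read from that share.

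Among the partners and regulators of the WNK cascade, 4 of 15 passed (26.7%), 2 in each direction. The ubiquitin ligase NEDD4 rose from 59.8 ± 0.656 to 68.2 ± 2.29 CPM (log2 fold change 0.19, SE 0.04, edgeR adjusted p = 0.000444). Its relative NEDD4L, which acts on ion channels and on cotransporter regulation, rose from 50.6 ± 1.70 to 55.1 ± 0.931 CPM (0.13, SE 0.04, edgeR adjusted p = 0.049). KLHL2, an adaptor that brings WNK kinases to a ubiquitin ligase for degradation, fell from 24.2 ± 0.265 to 19.3 ± 0.479 CPM (−0.33, SE 0.06, edgeR adjusted p = 9.88e-05). SGK1, a kinase induced by hormones and osmotic stress, fell from 292 ± 7.52 to 265 ± 9.62 CPM (−0.14, SE 0.03, edgeR adjusted p = 0.000249). The call of NEDD4L was lost whichever of the 6 samples was left out and held in 5 of 16 alternatives (highest adjusted p = 0.257), while those of NEDD4 and SGK1 held in 15. All of these differences were far smaller than that of SLC12A7. The scaffold CAB39 (MO25), which binds and activates SPAK and OSR1, was at 114 CPM in both groups (0.00, SE 0.03), and KLHL3 and CUL3, of the same ubiquitin ligase, did not pass.

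Among chloride channels and their relatives, 4 of 16 passed, 2 in each direction. LRRC8A, the essential subunit of the volume-regulated anion channel, rose from 117 ± 3.70 to 128 ± 2.15 CPM (0.14, SE 0.03, edgeR adjusted p = 0.00143), while none of LRRC8B to LRRC8E passed. The chloride-proton exchanger CLCN4 rose from 4.31 ± 0.471 to 5.69 ± 0.388 CPM (0.40, SE 0.13, edgeR adjusted p = 0.0278). CLNS1A fell from 102 ± 0.936 to 87.2 ± 2.15 CPM (−0.23, SE 0.03, edgeR adjusted p = 1.37e-06); its product is named for a chloride current but is known as a part of the methylosome that prepares splicing proteins. The lysosomal exchanger CLCN7 fell from 113 ± 1.36 to 105 ± 5.06 CPM (−0.10, SE 0.03, edgeR adjusted p = 0.0368). The call of LRRC8A held in 15 of 16 alternatives, that of CLCN4 in 8 and that of CLCN7 in 5.

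Cells also balance their volume with organic osmolytes, and 3 of 6 tested genes of this list passed, 1 higher and 2 lower. NFAT5, the transcription factor of the response to high salt, rose from 591 ± 14.1 to 622 ± 8.65 CPM (0.07, SE 0.03, edgeR adjusted p = 0.0394). The taurine transporter SLC6A6 fell from 71.7 ± 0.536 to 62.4 ± 3.25 CPM (−0.20, SE 0.04, edgeR adjusted p = 0.000256), and AKR1B1, which makes sorbitol, fell from 4810 ± 385 to 4390 ± 334 CPM (−0.13, SE 0.03, edgeR adjusted p = 0.00466). The call of SLC6A6 held in 15 of 16 alternatives, that of AKR1B1 in 10 and that of NFAT5 in 8. SLC5A3, which takes up myo-inositol, did not pass (0.07, SE 0.03).

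Of the sodium pump and the potassium channels, 4 of 13 passed (30.8%), none higher and 4 lower. The mechanosensitive potassium channel KCNK2 (TREK-1) fell most in this list, from 83.8 ± 2.0 to 64.1 ± 2.53 CPM (−0.39, SE 0.04, edgeR adjusted p = 2.35e-11). The pump regulator FXYD5 fell from 104 ± 1.80 to 90.2 ± 1.73 CPM (−0.21, SE 0.03, edgeR adjusted p = 9.14e-06). The calcium-activated channel KCNN4 fell from 101 ± 2.29 to 92.3 ± 4.75 CPM (−0.13, SE 0.04, edgeR adjusted p = 0.0081). The call of KCNN4 held in 11 of 16 alternatives and those of KCNK2 and FXYD5 in all 16. The sodium pump subunits ATP1B1 (0.07, SE 0.03) and ATP1B3 (−0.03, SE 0.03) did not pass.

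Among sodium-proton exchangers, anion exchangers and aquaporins, 6 of 16 passed (37.5%), 3 in each direction. The anion transporter SLC26A11 rose from 14.5 ± 0.546 to 17.9 ± 1.89 CPM (0.30, SE 0.08, edgeR adjusted p = 0.00358). The sulfate transporter SLC26A2 fell from 41.3 ± 2.06 to 35.2 ± 1.31 CPM (−0.23, SE 0.05, edgeR adjusted p = 0.000915). SLC9A8, a sodium-proton exchanger of internal membranes, rose from 52.4 ± 2.0 to 60.8 ± 2.33 CPM (0.22, SE 0.04, edgeR adjusted p = 0.00026). The calls of SLC9A8 and SLC26A2 held in 15 of 16 alternatives and that of SLC26A11 in 14. The bicarbonate transporter SLC4A7 and the anion exchanger SLC4A2 also fell, with calls that held in 9 and 7.

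**Figure D4:**
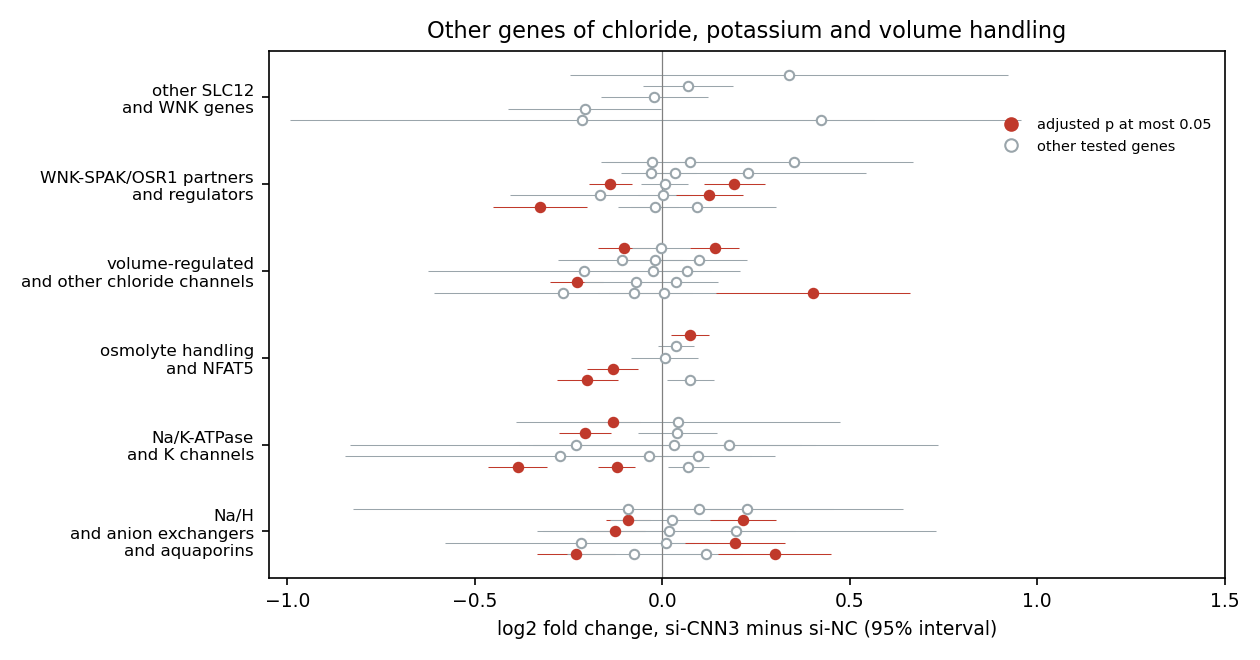
Log2 fold change between si-CNN3 and si-NC, with its 95% interval, of the tested genes in 6 lists of genes around the cotransporters, with genes at an edgeR adjusted p of at most 0.05 filled in red. All genes that passed lie between −0.39 and 0.40.

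SLC12A7 was also compared with the genes around it on chromosome 5. Of 34 genes annotated within 500 kb of it, 27 were in the table and 10 were tested. None of the 10 passed in edgeR, DESeq2 or limma without a filter, and 0 had an unadjusted p under 0.05. The nearest tested genes on either side were TRIP13 (log2 fold change 0.00, SE 0.03) and BRD9 (0.03, SE 0.03), and TERT (0.07, SE 0.06) and CLPTM1L (−0.01, SE 0.03). The 17 untested genes were nearly silent. Their summed counts were 39, 43 and 42 with si-CNN3 and 25, 28 and 18 with si-NC, or 2.07, 2.26 and 2.31 against 1.23, 1.12 and 0.828 CPM by library total. Of the 16 with any count, 13 (81.2%) were higher with si-CNN3, beside 54.5% of 14642 untested genes over the whole table. NKD2, 11.4 kb from SLC12A7, had 11, 5 and 8 counts against 3, 4 and 3; it was picked out after its values were seen, and at these counts no fold is given.

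**Figure D5:**
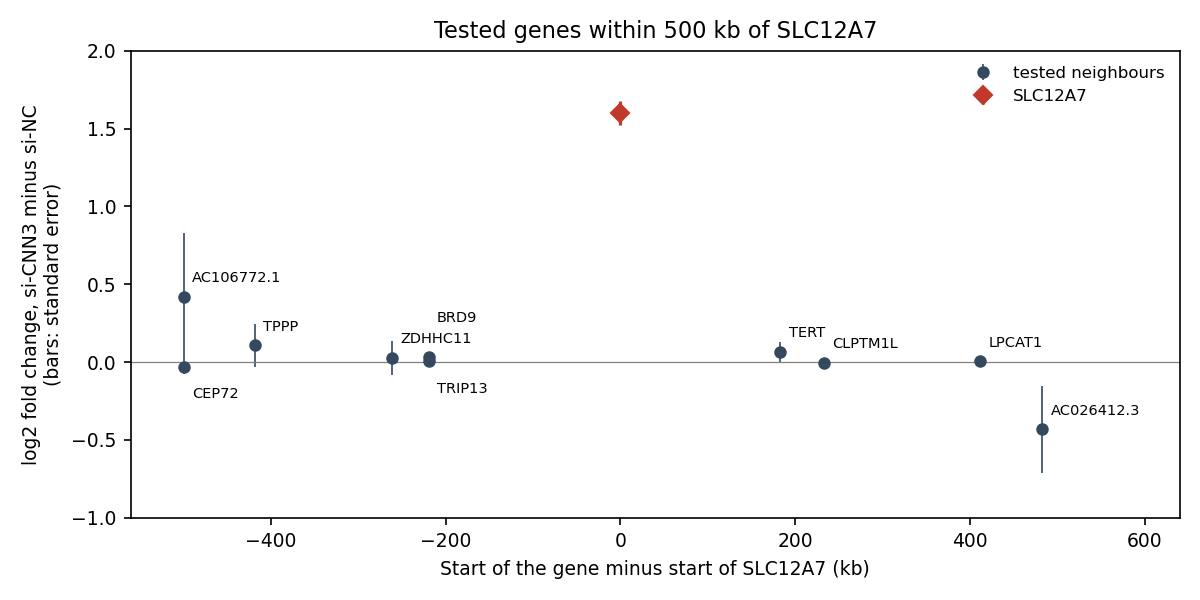
Log2 fold change, with its standard error, of SLC12A7 and of the 10 tested genes within 500 kb, against the distance of their starts from that of SLC12A7 in kb. The neighbours lie between −0.43 and 0.42 and SLC12A7 at 1.60.

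The genes whose pattern over the 6 samples lay closest to that of SLC12A7 were looked up among 14110 tested genes with a mean of at least 1 CPM, by the root mean square difference in log2 CPM after subtraction of the si-NC mean. They were DHRS2 (0.137), a mitochondrial and nuclear dehydrogenase, IRGM (0.170), AC139491.2 (0.170), the chemokine CXCL8 (0.185) and the stress-induced transcription factor ATF3 (0.208). DHRS2 was at 20.3 against 5.91 CPM, CXCL8 at 7.70 against 2.92 CPM and ATF3 at 14.2 against 5.57 CPM. IRGM and AC139491.2 were counted thinly (14 to 49 and 14 to 50 counts) and had nearly the same range of counts. Whether they share reads was not tested. IRGM also overlaps ZNF300 on the other strand, which had 793 to 1133 counts and a log2 fold change of −0.05. Without strand information the reads of IRGM and ZNF300 cannot be told apart in the shared part. The values of both IRGM and AC139491.2 are thus uncertain. With 6 samples in 2 groups, this likeness mostly restates a similar fold change.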

How the data were processed

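RNA-seq reads of the 6 samples were, per the submitters' processing notes and the study's methods, aligned with TopHat2 (2.0.9, with Bowtie2 2.0.6) and counted per Ensembl gene; HTSeq and DESeq (1.10.1) are also named. Build, annotation and strand setting were not given in the sources used here. The authors deposited raw counts and FPKM values made from the same counts. The FPKM equalled counts per length and total in 100% of 146253 values (to 0.001 bases).

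Symbols and positions came from GENCODE 29 (GRCh38), which named 45342 of 48162 identifiers. Counts were normalized with TMM and tested with edgeR 4.0.16 (quasi-likelihood, filterByExpr, Benjamini-Hochberg over 15860 genes, threshold 0.05, R 4.3.3). DESeq2 1.42.0 and limma 3.58.1 (on FPKM with a pseudocount of 1 or 0.1, on a log2 scale, for genes averaging 1 or more, or for all genes) were among 16 alternatives. The fits were tested on simulated data. Levels are TMM-normalized CPM, FPKM only where stated; intervals on folds cover the fitted spread between samples. The common biological coefficient of variation was 0.0232. The counts of samples within a group differed by more than sampling noise (chi-square per degree of freedom 1.52 to 1.90).

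The members and gene lists were chosen with earlier results of these data known. Genes named from a list are those past the threshold, at most the 4 with the largest log2 fold change; relatives that did not pass, and the remaining exchangers, were named for their role after their values were seen. The lengths and shares by the longest coding transcript were added after the data were seen. Protein sequences were not used here, and some genes counted in the lists are not reported here by name.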

Additional observations from a re-analysis of the deposited data

How the results depend on the processing

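SLC12A7 was higher with si-CNN3 in all 16 alternatives, with a log2 fold change of 1.43 to 1.62. It passed the threshold in each, but the set was chosen by this rise in the same samples, so nothing is read from that. The lowest log2 fold change, 1.431, came from limma on log2(FPKM + 1), with and without a filter, a scale that understates changes of low genes. The other 7 members kept fold changes close to 0, and none of them passed except WNK1 (0.05 to 0.09), so that 2 members passed under upper quartile factors, total counts, the replicate block and without si-CNN3 replicate 3 (1 to 2 when a sample was left out). All genes called numbered 2111 (978 higher, 1133 lower), 1246 (522, 724) with DESeq2, 1363 (564 lower) and 1353 (564 lower) with limma and a pseudocount of 1 or 0.1, 585 (316, 269) with limma and no filter, and 1551 to 1747 with a sample left out. Of the calls 46.3% were higher, but 60.0% with total counts, where the median of all genes shifted by 0.0172. The chloride channel list gave 2 calls with DESeq2 and with limma, 1 with limma and no filter, and 2 to 3 with a sample left out; 2 came without si-CNN3 replicate 3, si-NC replicate 2 or si-NC replicate 3. The exchanger list gave 3 with DESeq2 and limma, the osmolyte list 1 with limma; with limma and no filter these gave 0 and the list of WNK partners 1. The limma fit without a filter tested 30502 genes; the causes of the other shifts were not tested.

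By level SLC12A7 ranked 8 of the members with si-NC and 7 with si-CNN3; 6 members held their si-NC rank there, and 6 with the longest coding transcript as the length, on which SLC12A7 made up 7.76% and 2.80% of its sum with SLC12A4. Deviations of same-numbered samples correlated only weakly (0.0105, 0.0329 and 0.0275, none over 0.1). All 6 samples nonetheless correlated best with their own number, and 2727 genes passed with the replicate block, beside 2111 without it. The group mean had been subtracted from each sample, so these 6 best matches are not independent of each other. Whether the replicate numbers pair the samples was therefore not settled, and the main fit used no pairing. Depth limits SLC12A7 most among the members, with a counting error of 7.82% per si-NC sample. Of the 5 genes most like SLC12A7, 3 were also found on log2(FPKM + 1).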

Other observations

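Seed matches and promoter letters were read without a test. In the 12 RefSeq promoter windows of the 8 genes (GRCh38.p14, 250 bases before to 50 after a start), the E-box CACGTG occurred in 2 windows, that of SLC12A7 at 53 bases before its start and 1 of 2 of SLC12A9, beside 7.26% of 35116 promoters. The GC box GGGCGG, read on both strands, was present in 9 of the 12 windows, beside 45.0% of all promoters, and windows of 1 gene can overlap. The AP-1 motif TGANTCA and the ATF4 motif TGATGNAA occurred in none of the 12 windows (7.71% and 3.62% of all promoters), and the cAMP response element TGACGTCA in that of OXSR1 (1.85%). The SLC12A7 window was rich in G and C (76.3%, median of all promoters 58.7%). This was not particular to it: the 12 windows ranged from 54.7% (SLC12A8) to 78.7% (SLC12A2), and that of STK39 had 77.3%. A match is a description and does not show binding.

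LINC01511, a long noncoding gene 252 kb from SLC12A7, was counted 6, 6 and 7 times in the si-CNN3 samples, against 1, 1 and 3 in the control. It was picked out after its values were seen, and it fell below the filter on low counts.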
